A study of Mus musculus with 2 samples.

Results

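The genes that build cholesterol and those that sense and move it were followed in the embryonic facial prominence, the tissue that forms the face, of mouse embryos at 12.5 days of development. A list of 28 gene symbols was matched to the gene tables of GENCODE annotation release M21. Of these symbols, 27 matched, out of 55536 genes in the tables, and Faxdc2 was not analysed here. The 27 genes fall into 5 groups by role, namely the mevalonate pathway, the making of squalene and lanosterol, the steps from lanosterol to cholesterol, the sensing of sterols, and a thiolase with sterol transport proteins.

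The data are polyA plus RNA-seq libraries of 2 biological replicates. Tissue of 120 embryos was pooled for replicate 1, and of 88 for replicate 2. All embryos were of strain B6NCrl, healthy and of both sexes, and each library began with 10 ng of RNA that was primed with oligo-dT, spiked with ERCC control RNAs and fragmented by Nextera tagmentation. There is 1 tissue at 1 age and no treatment or mutant, so the data give levels, the difference between the pools and the effect of the annotation, and no comparison of conditions. The spread is that of 2 pools, and embryos within a pool cannot be told apart.

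Cholesterol is made from acetyl-CoA. The mevalonate pathway yields isoprenoid units, which are joined into squalene, and squalene is closed into lanosterol, the first sterol. Enzymes of the endoplasmic reticulum then trim and rearrange lanosterol into cholesterol. When membrane sterol is low, SCAP escorts the SREBP transcription factors to the Golgi, where they are cut free to act on the genes of the pathway, and INSIG proteins hold SCAP back when sterol is plentiful. In the face, cholesterol is best known as the lipid attached to Hedgehog ligands, and inherited defects of late enzymes such as DHCR7 cause malformations that include the face.

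SREBP proteins bind sterol regulatory elements, and in the promoters of this pathway they are known to act with NF-Y, which binds CCAAT. The 250 bases before the RefSeq start sites (build GRCm38.p6) were searched on both strands for TCACNCCA, a short form of the element, for its longer form TCACNCCAC, which contains the short one, for the E-box CACGTG, for CCAAT and for the GC box GGGCGG. Windows were at hand for 22 members, 30 windows in all, and not for Fdft1, Sqle, Stard4, Npc1 and Fdps. The short element was in 3 of the 22, Hmgcs1, Srebf2 and Msmo1, or 13.6%, against 3.90% of 10403 detected protein-coding genes and 3.67% of all 32851 windows. The long form was in 1, Hmgcs1, or 4.55%, against 1.20% of detected genes and 1.05% of windows. CCAAT was in 20 of the 22, or 90.9%, all but Scap and Acat2, against 41.04% of detected genes and 33.8% of windows. The E-box was in 5, Hsd17b7, Sc5d, Dhcr7, Scap and Insig1, or 22.7%, against 9.76% of detected genes and 6.02% of windows, and the GC box in 21, all but Pmvk, or 95.5%, against 64.9% of detected genes and 32.7% of windows. CCAAT was thus in most of the members with a window and the sterol element in few, and the share of each was above that of detected genes.

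Printed here are the 3 members with the short sterol element, the window with the most CCAAT matches among those mapped (Mvk), and a window with an E-box (Insig1), the last 2 chosen after the matches were seen. Each runs 5′ to 3′ on the gene's own strand, and capitals mark TCACNCCA, CCAAT and CACGTG in either orientation, so that ATTGG is CCAAT on the opposite strand. The windows of Srebf2 and Insig1 stop where the first release M21 transcript of the gene starts. Of Msmo1 only 30 bases are shown, since its main transcript starts upstream of the RefSeq site and runs through them. The Hmgcs1 window is chr13:119690101-119690350 on the plus strand.
Hmgcs1: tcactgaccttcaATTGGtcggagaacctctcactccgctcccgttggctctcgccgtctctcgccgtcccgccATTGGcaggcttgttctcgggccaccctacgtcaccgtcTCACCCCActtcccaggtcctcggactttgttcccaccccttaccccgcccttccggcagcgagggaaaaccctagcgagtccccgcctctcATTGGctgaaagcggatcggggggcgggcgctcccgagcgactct
The Srebf2 window is chr15:82147019-82147180 on the plus strand.
Srebf2: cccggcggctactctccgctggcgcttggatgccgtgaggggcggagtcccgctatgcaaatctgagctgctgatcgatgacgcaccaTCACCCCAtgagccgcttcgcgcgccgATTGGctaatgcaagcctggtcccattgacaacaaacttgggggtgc
The Msmo1 stretch is chr8:64733730-64733759 on the minus strand.
Msmo1: attcTCACTCCAtccgcgcagCCAATgact
The Mvk window is chr5:114444019-114444268 on the plus strand.
Mvk: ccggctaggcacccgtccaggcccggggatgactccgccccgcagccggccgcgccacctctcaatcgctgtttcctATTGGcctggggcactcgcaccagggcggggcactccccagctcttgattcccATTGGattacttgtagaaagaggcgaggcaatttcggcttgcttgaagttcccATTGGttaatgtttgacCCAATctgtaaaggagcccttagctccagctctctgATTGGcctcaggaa
The Insig1 window is chr5:28071162-28071362 on the plus strand.
Insig1: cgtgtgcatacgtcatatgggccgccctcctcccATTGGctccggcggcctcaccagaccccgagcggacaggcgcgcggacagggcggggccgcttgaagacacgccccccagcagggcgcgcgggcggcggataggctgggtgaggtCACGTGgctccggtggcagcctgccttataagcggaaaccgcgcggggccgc

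Only bases upstream of the RefSeq start were searched, so every match lies there. The short element was at -137 to -130 in Hmgcs1, -162 to -155 in Srebf2 and -177 to -170 in Msmo1. In each of these 3 windows it was on the gene's own strand. The CCAAT match nearest the element lay at -176 to -172 in Hmgcs1, -135 to -131 in Srebf2 and -160 to -156 in Msmo1. In the window nearest the leading transcript of each gene there were 34 CCAAT matches in 17 members, of which 24 were read on the opposite strand and 24 lay within 100 bases of the start, and 11 members had at least 2. Counted in the same way over 10403 detected genes, 36.8% had a match and 13.7% at least 2, and of their 5951 matches 49.1% were on the opposite strand and 53.05% lay within 100 bases. Mvk had 5 and Hmgcs1, Msmo1 and Hsd17b7 had 3 each. The RefSeq start was within 50 bases of the first base of the leading transcript for 15 of the 22 members, so for the others the distances are from another start. In Msmo1, Idi1, Dhcr7 and Pmvk the leading transcript starts 214, 105, 588 and 453 bases upstream of the RefSeq start. The matches mapped in Msmo1, Idi1 and Dhcr7 thus lie within the span of that transcript and not before it, as do some close to the start in other members, such as Cyp51. A match is a run of letters and not evidence that a protein binds there, and no match says only that these letters are not in the window.

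**Figure D1:**
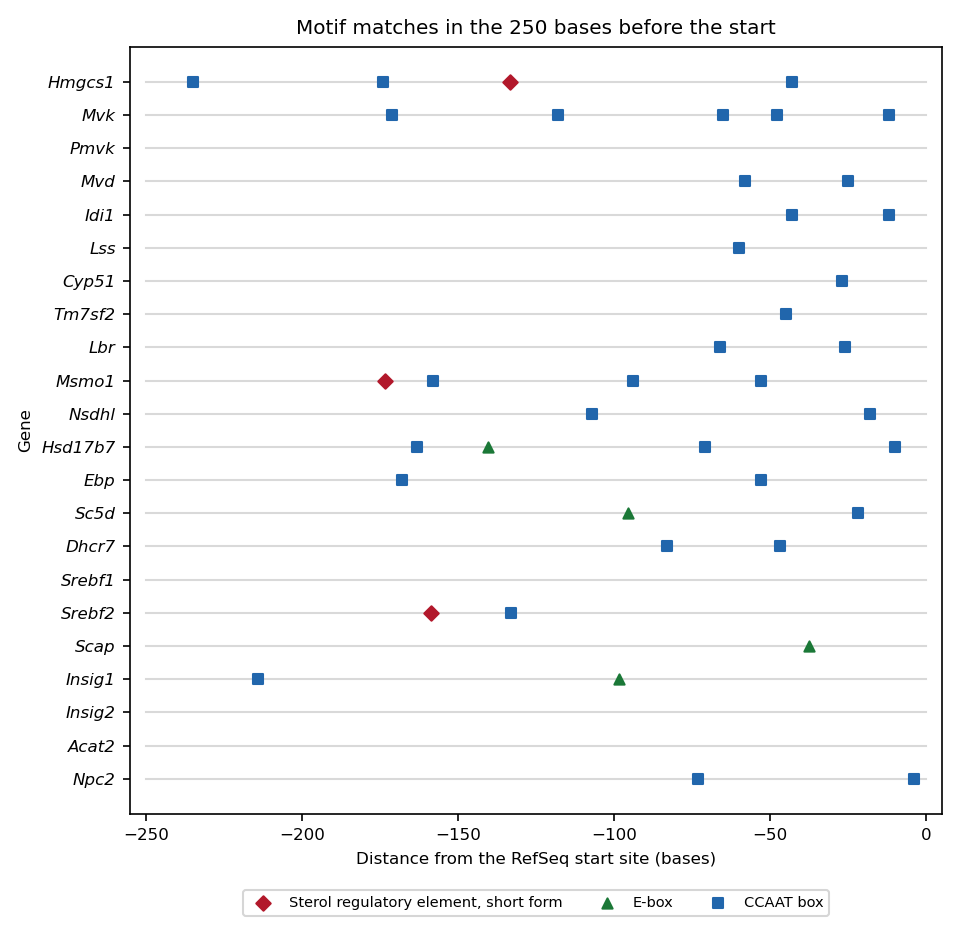
Matches to the short sterol element (diamonds), the E-box (triangles) and CCAAT (squares) in the window nearest the leading transcript of 22 members, by distance in bases from the RefSeq start site. Squares are on 17 of the 22 lines and diamonds on 3, Hmgcs1, Msmo1 and Srebf2.

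Every one of the 27 members was detected. Levels are TPM, a scaled share of all transcripts, spike-ins included, that allows for transcript length, as deposited. In both libraries all 27 reached 1 TPM or more, against 60.7% of 22028 protein-coding genes, and all 27 reached 10, against 40.9%. A level of 100 TPM or more in both was reached by 5 of them, Hmgcs1, Fdps, Sqle, Srebf2 and Acat2, against 7.26% of protein-coding genes. The median member had a mean TPM of 43.6, against 21.5 for the 13382 protein-coding genes detected and 4.79 for all protein-coding genes. The lowest member stood at percentile 62.6 of protein-coding genes and the median member at percentile 81.8.

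Together the members summed to 1751 TPM (replicate 1) and 1857 TPM (replicate 2), or 0.175% and 0.186% of all TPM. That total includes the ERCC spike-ins, at 65218 and 71718 TPM in replicates 1 and 2. From the lowest, Stard4, to the highest, Acat2, mean levels spanned 16.2-fold. The spread between the pools was small beside this, with a coefficient of variation of 3.25% for the median member and of 0.462% to 15.9% over all. Of the 26 neighbouring pairs in the order of mean levels, 18 had values in the 2 replicates that did not overlap, and 8 overlapped. Acat2 averaged 221 ± 1.36 TPM and Npc1 18.1 ± 0.14 TPM, while Msmo1 averaged 85.3 ± 13.6 TPM and Idi1 58.8 ± 8.95 TPM (SD, n = 2 each). The close values of Npc1 hold for TPM, and its expected counts, given below, differed more. Because the tissue is a mixture, fewer cells of a type and less RNA per cell cannot be told apart in any of these values.

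**Figure D2:**
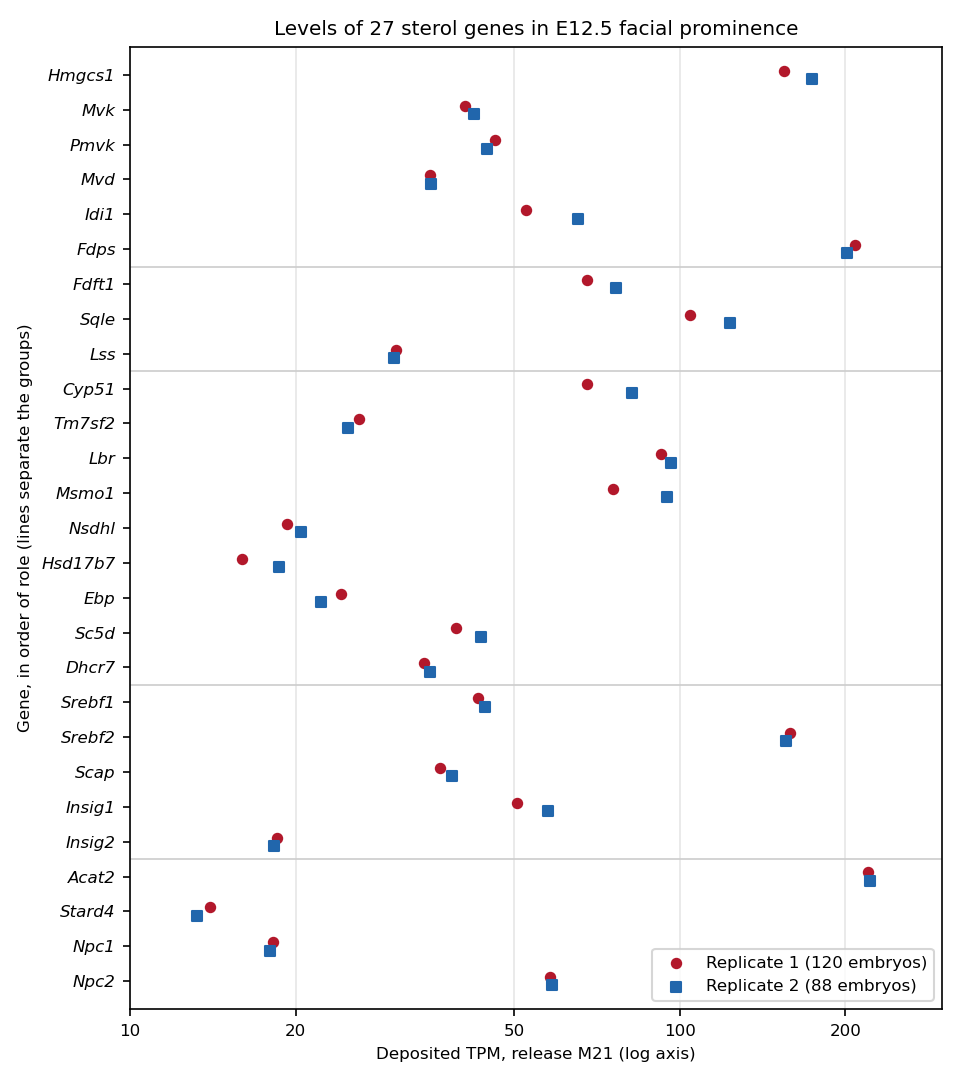
TPM of each member on a log axis, in order of role, in replicate 1 (circles) and replicate 2 (squares). All values lie between 13.2 and 222 TPM, and the points of a gene lie close together beside the distances between genes.

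The members are scattered over the genome, on 16 chromosomes of build mm10 in the release M21 annotation. Hmgcs1 spans chr13:119690379-119708260 on the plus strand, and Idi1 lies on the same chromosome at chr13:8885501-8892451, also plus. Srebf2 spans chr15:82147181-82205379 on the plus strand, Msmo1 chr8:64718139-64733792 on the minus strand, Cyp51 chr5:4081145-4104746 on the minus strand and Acat2 chr17:12942890-12960747 on the minus strand. Fdps (chr3:89093588-89101959, minus) and Pmvk (chr3:89454541-89469013, plus) lie 352581 bases apart. Nsdhl and Ebp are the members on the X chromosome.

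The mevalonate pathway, 6 enzymes, had the largest summed level of the 5 groups and was uneven along its length. Hmgcs1, the HMG-CoA synthase that opens the committed path, had 155 and 174 TPM in replicates 1 and 2. The 3 enzymes that follow in the list, which phosphorylate mevalonate and decarboxylate it, were lower and near each other. Mvk, mevalonate kinase, had 40.6 and 42.2 TPM. Pmvk, phosphomevalonate kinase, had 46.2 and 44.5 TPM. Mvd, the decarboxylase, had 35.1 and 35.3 TPM, the closest agreement of the pools within the pathway. Idi1, which isomerises isopentenyl diphosphate, had 52.5 and 65.2 TPM, so its pools stood further apart than those of the kinases. Fdps, farnesyl diphosphate synthase, at the fork where sterols part from other isoprenoids, had 208 and 202 TPM. It was second of all 27 members in mean level, after Acat2, and 5.94 and 5.72 times Mvd in the same libraries. The 6 genes summed to 537 and 563 TPM, which is 30.7% and 30.3% of the members' total.

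The 3 genes of squalene and lanosterol were also unequal. Fdft1, squalene synthase, had 67.7 and 76.6 TPM. Sqle, squalene epoxidase, an oxygen-using step often described as a point of control, had 104 and 123 TPM. Lss, lanosterol synthase, which folds the epoxide into the sterol ring, had 30.45 and 30.2 TPM. Sqle was thus the highest and Lss the lowest in both pools, with no overlap among the 3. They summed to 202 and 229.9 TPM.

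The 9 genes found of the steps from lanosterol to cholesterol had a median mean level of 34.7 TPM, below the 52.1 of the mevalonate pathway and the 72.1 of the squalene group. The high levels of this stretch were those of Cyp51, Msmo1 and Lbr. Cyp51, which removes the first methyl group of lanosterol, had 67.9 and 81.8 TPM. Msmo1, the methyl sterol oxidase that acts on the next methyl groups, had 75.7 and 94.9 TPM. Its partners in that demethylation were much lower. Nsdhl, the dehydrogenase, on the X chromosome, had 19.3 and 20.5 TPM. Hsd17b7, the ketosterol reductase, had 16.0 and 18.6 TPM and was the lowest enzyme of the list. The oxidase was therefore above both partners in each pool, with no overlap.

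The reduction of the sterol ring that follows the Cyp51 step can be carried out by 2 proteins. Lbr, the lamin B receptor, a protein of the inner nuclear membrane with a sterol reductase part, had 92.3 and 96.3 TPM. Tm7sf2, the dedicated reductase, had 26.1 and 24.9 TPM. The level of Lbr was 3.54 and 3.87 times that of Tm7sf2, and 2.89 and 3.19 times in the tables made with annotation release M4, so the order was the same with both releases. In the last steps, Ebp, the sterol isomerase, also on the X chromosome, had 24.2 and 22.2 TPM. Sc5d, the desaturase, had 39.1 and 43.5 TPM. Dhcr7, the reductase lost in Smith-Lemli-Opitz syndrome, had 34.2 and 35.15 TPM. These late enzymes stayed between 22.2 and 43.5 TPM in both pools, all below Cyp51, Msmo1 and Lbr. They were above Nsdhl and Hsd17b7, and Tm7sf2 lay within the same range.

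Of the sterol sensors, Srebf2, whose protein is known chiefly as the driver of cholesterol genes, had 159 and 156 TPM. Srebf1, whose protein is known chiefly for fatty acid genes, had 43.0 and 44.2 TPM. The ratio of Srebf2 to Srebf1 was 3.68 and 3.53, but with release M4 it was 2.19 and 2.16, a point taken up with the annotation. Scap, the escort, had 36.6 and 38.6 TPM. Insig1, itself a known SREBP target, had 50.5 and 57.5 TPM, and Insig2, its homologue, had 18.5 and 18.2 TPM. Insig1 was 2.73 and 3.15 times Insig2, so the 2 retention factors were unequal in both pools. The group of 5 summed to 307 and 315 TPM.

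Acat2, the cytosolic thiolase that makes acetoacetyl-CoA for the pathway, had 219.9 and 222 TPM, the highest level of the 27. It has a close copy in the genome, Acat3, which had 27.1 and 36.3 expected counts, against 8600 and 12298 for Acat2. The counts of Acat2 were not whole numbers, and whether reads were divided between these 2 genes was not tested. Of the transport genes, Npc2, the soluble lysosomal cholesterol carrier, had 58.0 and 58.6 TPM. Npc1, the membrane protein that receives cholesterol from it, had 18.2 and 18.0 TPM. Stard4, a cytosolic sterol carrier, had 14.0 and 13.2 TPM, the lowest member. Npc2 was 3.19 and 3.26 times Npc1 in the same libraries. The 4 genes had a median log2 difference of 0.00 in TPM between the pools, the nearest to 0 of the 5 groups. By scaled expected counts, Npc1 was higher in replicate 1, at a ratio of 1.10.

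The pools were compared as replicate 1 over replicate 2 on the scale log2(TPM + 1). With 1 library on each side there is no replicate check of such a difference and no p-value. A 95% interval (exact, Clopper-Pearson, conditional on the sum of both counts) was put on the ratio of expected counts, each scaled to the summed counts of genes in its library. It covers counting error only, with each read taken as a separate molecule. Reads from PCR without molecular barcodes do not each stand for a separate molecule, so the interval can be too narrow even for that error. The members' expected counts ran from 465 to 14302. Replicate 1 was the lower one for 18 members and the higher for 9, so 66.7% were lower, against 50.2% of 13585 protein-coding genes of mean TPM 1 or more. The median log2 difference was -0.04, against -0.00 for those genes, and the median size of the difference was 0.06, against 0.09. On the count scale the median size was 0.09, against 0.08, so whether the members or other genes differed more between the pools depended on the scale.

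A log2 difference of -0.25 or less was reached by 3 members, Idi1, Cyp51 and Msmo1, against 5.89% of those genes. No member was 0.25 or more higher in replicate 1, against 6.76%. Msmo1 had the largest difference, with 75.7 and 94.9 TPM in replicates 1 and 2, a log2 difference of -0.32 and a count ratio of 0.807 (interval 0.768 to 0.848). Idi1 followed at -0.31, with a count ratio of 0.811 (0.774 to 0.8495). Cyp51 stood at -0.27, with a count ratio of 0.870 (0.838 to 0.902). The next below it was Sqle at -0.24, just short of the threshold, with a count ratio of 0.8515 (0.822 to 0.8815). Then came Hsd17b7 at -0.21, but its count ratio was 0.961 (0.881 to 1.049), so its counts differed much less than its TPM. With counts scaled in this way, with TMM or DESeq2 scaling, with release M4 and after centring on GC content, Cyp51 was no longer past the threshold and Idi1 and Msmo1 were.

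Counting error left 10 members with an interval wholly below 1, Hmgcs1, Idi1, Fdft1, Sqle, Lss, Cyp51, Lbr, Msmo1, Sc5d and Insig1, against 14.7% of the background genes. Only Fdps and Npc1 had an interval wholly above 1, against 15.5%, and for the other 15 it included 1. Such an interval narrows as counts rise, and the background genes were not matched to the members in level. The median member had a mean TPM of 43.6, against 21.5 for protein-coding genes detected. These shares are thus not compared at equal counts. Fdps had a count ratio of 1.04 (1.004 to 1.08) and Npc1 one of 1.10 (1.03 to 1.18). For Lss the 2 measures disagreed in direction. Its TPM was slightly higher in replicate 1, at a log2 difference of 0.01, while its count ratio was 0.909 (0.855 to 0.967). Insig2 and Stard4 disagreed in the same way, at log2 differences of 0.02 and 0.07 and count ratios of 0.931 and 0.951, with intervals that included 1. Mvd and Npc2 disagreed slightly the other way. By group, the interval lay below 1 for all 3 squalene genes, 4 of the 9 later enzymes, 2 of the 6 mevalonate enzymes, 1 of the 5 sensors (Insig1) and none of the 4 genes of thiolase and transport. The enzymes on the lower side thus came from all 3 enzyme groups, and Insig1 was alone among the sensors. Srebf2, by contrast, had a count ratio of 1.00 (0.976 to 1.03), and Acat2 one of 0.998 (0.971 to 1.03).

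**Figure D3:**
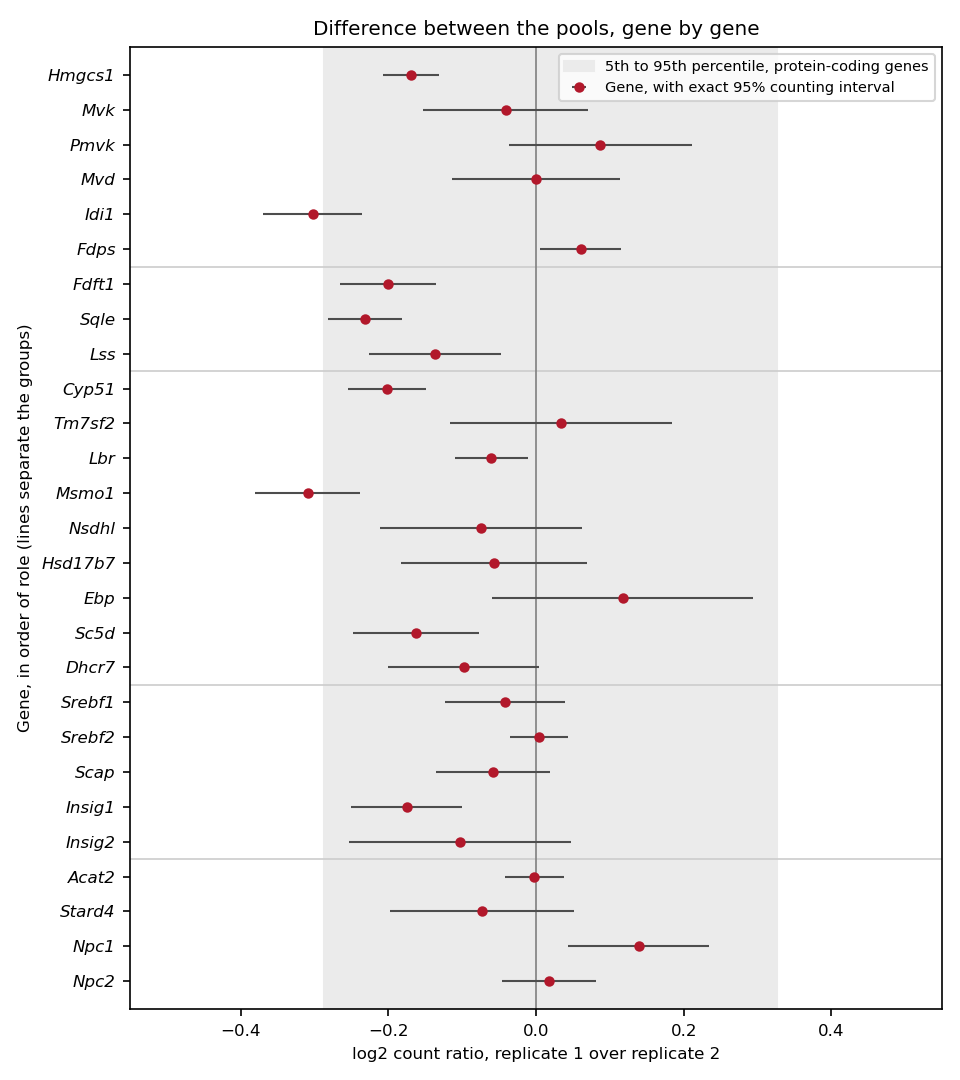
Log2 of the ratio of expected counts scaled to the summed counts of genes, replicate 1 over replicate 2, for each member, with exact 95% counting intervals as bars. The grey band runs from the 5th to the 95th percentile of protein-coding genes of mean TPM 1 or more, from -0.29 to 0.33, and Idi1 and Msmo1 are the 2 members left of it.

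The pools also differed in some markers of cell types and of facial regions. Of 4 neuron markers all 4 were higher in replicate 1 by at least 0.25 on the log2 scale, and their sums were 364 and 272 TPM in replicates 1 and 2. The 2 muscle markers summed to 220.5 and 263 TPM, and 1 of them, Myog, was past the threshold, lower in replicate 1 at -0.26. Of 3 glial markers, 1 was past it, Fabp7, higher in replicate 1 at 0.37. None of the 3 erythroid markers was past the threshold, and their sums of 9154 and 8317 TPM were mostly Hbb-y, at 7705 and 7034 TPM. Of 7 facial mesenchyme markers, 2 were past the threshold higher in replicate 1 and 1 lower, with a list median of 0.05. Barx1, a gene of the oral side of the jaw mesenchyme, was higher, at 168 and 83.9 TPM. So was Dlx5, a gene of the lower jaw, at 80.8 and 54.8 TPM. Alx1, a gene of the mid and upper face, was lower, at 103 and 149.9 TPM. Msx1, Prrx1, Prrx2 and Twist1 were not past the threshold. The part of these differences in those of the sterol genes was not tested. Scaling on the ERCC spike-ins moved all genes alike, to a median log2 difference of 0.12 for the background and 0.06 for the members. The median member lay below the background median under each of the scalings tried. A scaling shifts all genes of a library nearly alike, so it could hardly change that order, and the agreement of the scalings adds no support.

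The tissue label was checked against markers. The 7 markers of facial mesenchyme were all detected, with a median of 126 TPM and Msx1 at 319 and 308 TPM. The 3 of epithelium, Krt14, Epcam and Krt5, were detected too, with a median of 69.7 TPM. The liver, the organ best known for making cholesterol, left little trace, with 4 of 6 markers detected, sums of 13.3 and 12.7 TPM in replicates 1 and 2, and Alb, serum albumin, at 0.31 and 0.51 TPM. Of 4 markers of steroid-making cells 1 was detected, and Cyp11a1, which cuts cholesterol to begin steroid synthesis, had 2 counts in replicate 1 and 4 in replicate 2. Endothelial markers summed to 40.5 and 41.4 TPM, macrophage markers to 30.8 and 32.2 TPM, and glial markers to 183 and 146 TPM. Markers of several cell types beside the mesenchyme were thus present in both pools.

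Transcript tables give each gene's level split among its annotated transcripts. The leading transcript, the one with most TPM, was protein coding in all 27 members, against 90.5% of detected protein-coding genes. It held at least 80% of the gene's TPM in both pools in 11 members, against 36.7% of 13382 detected protein-coding genes. Mvd was carried by 1 transcript alone, Mvd-201, at 100% in both. Nsdhl-201 held 99.1% and 98.5%, Idi1-201 97.9% in each, and Sqle-201 97.4% and 98.0%. Transcripts of any type but protein coding, here called non-coding, include retained introns and those annotated for nonsense-mediated decay. Such transcripts held 5.60% of TPM in the median member, against 9.08% in the median detected gene. They held at least 25% in both pools in 5 of the 27, Lss, Msmo1, Hsd17b7, Srebf1 and Npc1, against 25.8% of detected genes.

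Several of these shares rested on very short transcripts, whose TPM is large for few reads. For Srebf1, the long coding transcript Srebf1-201, which begins at position 60220604 of chromosome 11, held 46.3% and 46.5% of TPM but 73.8% and 73.5% of expected counts. The short Srebf1-204, 367 bases long and non-coding, held 24.4% and 23.7% of TPM and only 2.48% and 2.39% of counts. A further coding form, Srebf1-207, which begins inside the gene at position 60210465, held 13.3% of TPM in each pool. Lss showed the same kind of split. Its main transcript Lss-201 held 46.8% and 52.6% of TPM and 71.7% and 72.1% of counts, while the 352-base Lss-202 held 20.0% and 10.9% of TPM on 28.4 and 21.7 counts. Hsd17b7-204, non-coding and 810 bases long, held 36.3% and 29.5% of TPM and 8.83% and 7.99% of counts. In Msmo1 the non-coding share was not of this kind, since Msmo1-206, 1329 bases long, held 24.7% and 27.4% of TPM and still 17.0% and 18.9% of counts.

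Other members divided between coding forms. Hmgcs1-201 held 55.6% and 54.8% of TPM and Hmgcs1-202 held 38.9% and 40.4%, and their first bases are 119690446 and 119690464 on chromosome 13. For Sc5d the 2 measures gave opposite orders. Sc5d-202, 1677 bases long, held 69.3% and 68.2% of TPM but 43.2% and 41.9% of counts, and Sc5d-201, 4787 bases long, held the rest. The pools disagreed on Mvk-202, at 5.15% in replicate 1 and 24.5% in replicate 2, while Mvk-201 held 74.2% and 60.7%. In Srebf2 no form led clearly, with Srebf2-203 at 29.5% and 29.7% of TPM and Srebf2-201 at 27.7% and 29.1%, and by counts the order was the other way, at 37.7% and 37.2% for Srebf2-203 and 44.7% and 46.0% for Srebf2-201. Such divisions are estimates from reads that fit several transcripts, so the gene's total is the firmer value.

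**Figure D4:**
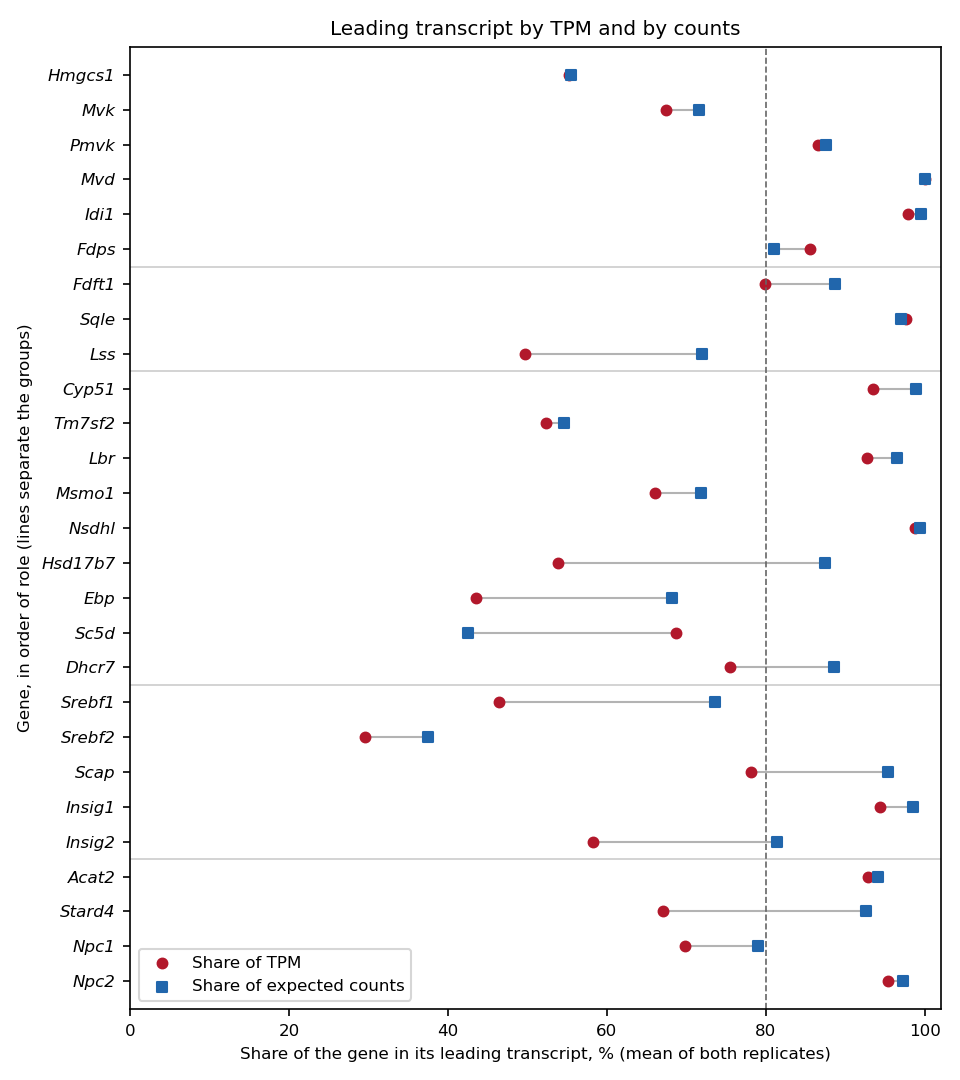
Share of each member held by its leading transcript, in percent and as the mean of both replicates, by TPM (circles) and by expected counts (squares), with a dashed line at 80%. The measures lie far apart for Hsd17b7, Sc5d, Srebf1, Stard4 and Ebp, and together for Mvd, Nsdhl, Sqle and Hmgcs1.

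The same libraries were also deposited with the older annotation release M4. The median member had a TPM with M21 of 0.954 and 0.955 times that with M4 in the 2 replicates, against 0.9499 and 0.9501 for 13468 protein-coding genes in both releases. Srebf2 alone was at least 1.5 times higher with M21 in both replicates, against 4.92% of genes, and no member was at least 1.5 times lower, against 0.958%. Srebf2 had 159 and 156 TPM with M21 and 97.5 and 98.5 TPM with M4, ratios of 1.63 and 1.58. Its counts, scaled to the gene total, were 1.05 times those with M4 in each replicate. Of its 7 transcripts in M21, 6 were not in M4, and these held 72.3% and 70.9% of its TPM and 55.3% and 54.0% of its counts. The counts of Srebf2 thus changed far less between releases than its level did.

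Scap moved the same way by less, with 36.6 and 38.6 TPM with M21 and 30.3 and 31.8 TPM with M4, a ratio of 1.21 in each. Its transcripts not in M4 held 21.5% and 22.1% of TPM and 4.50% and 4.69% of counts. Tm7sf2 moved the other way, with 26.1 and 24.9 TPM with M21 and 33.7 and 31.8 TPM with M4, ratios of 0.775 and 0.783. In all, 20 of the 27 members were lower with M21 in both replicates, against 75.5% of genes, and 5 were higher, against 20.9%, so the split of the members was near that of other genes. The levels of Srebf2, Scap and Tm7sf2 are thus the ones most tied to the annotation among the 27.

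**Figure D5:**
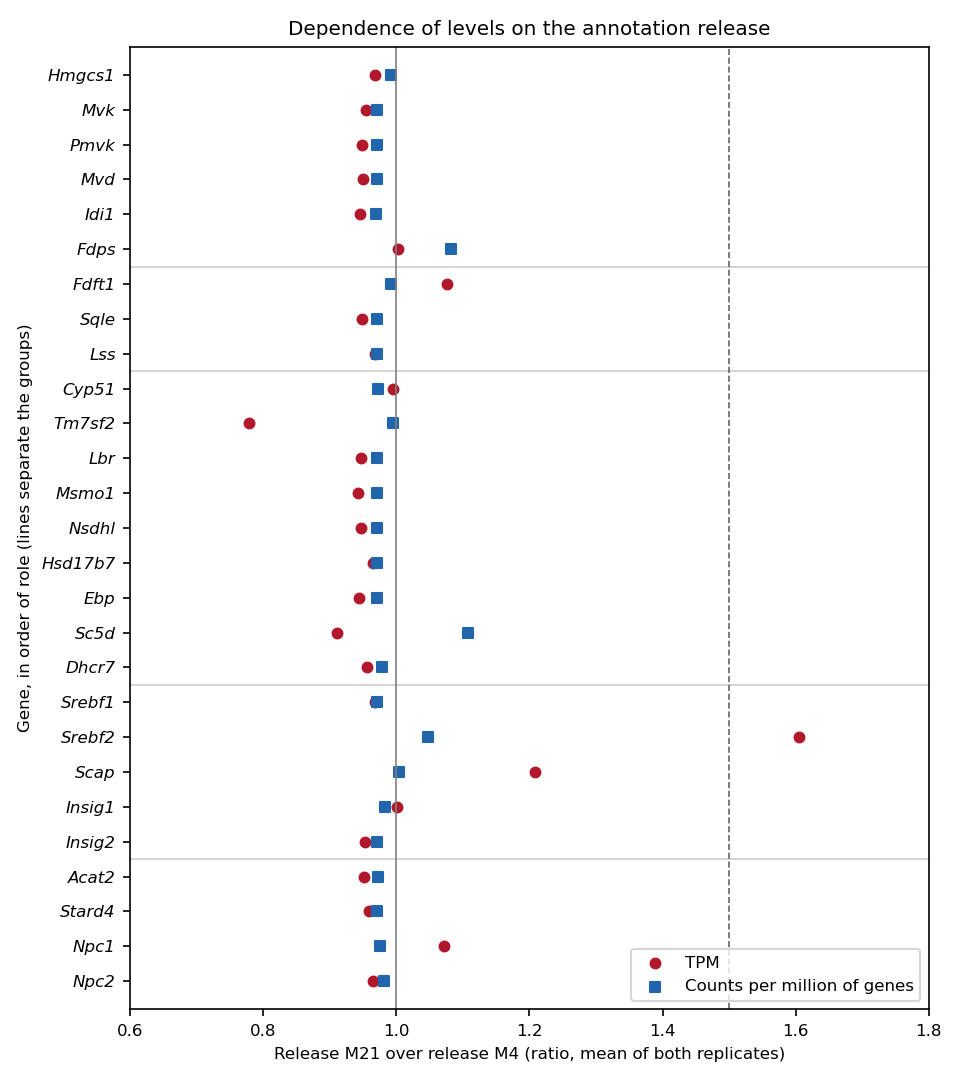
Ratio of each member's value with release M21 to that with release M4, as the mean of both replicates, for TPM (circles) and for expected counts scaled to the summed counts of genes (squares), with lines at 1 and 1.5. Srebf2 is the only member right of 1.5 in TPM, and its square lies near 1.

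Related pathways give the setting of these levels. Of 12 genes that process SREBP or regulate the breakdown of sterol enzymes, all 12 were detected, with a median of 30.5 TPM, and none differed by 0.25 or more between the pools. Aup1, a lipid droplet protein that recruits ubiquitin enzymes, had 131 and 120.3 TPM. Mbtps1, the protease that makes the first cut of SREBP, had 116 and 115 TPM. Fbxw7, a ubiquitin ligase subunit that targets nuclear SREBP, was the lowest at 11.1 and 10.8 TPM. The 14 genes of the isoprenoid branch, which use farnesyl diphosphate for other ends, were all detected, with a median of 29.2 TPM and 10 of 14 lower in replicate 1. None was past the threshold. Fnta, a subunit of protein prenyl transferases, had 98.8 and 100.3 TPM, and Rce1, a protease for prenylated proteins, 53.3 and 50.5 TPM. Pdss2, which makes the tail of ubiquinone, was the lowest at 10.4 and 12 TPM.

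Genes of sterol uptake, efflux and storage were lower, with 14 of 16 detected and a median of 10.1 TPM. Lrp1, a lipoprotein receptor, had 90.5 and 89.8 TPM. Nr1h2, a nuclear receptor for oxysterols, had 53.9 and 53.3 TPM. Soat2, one of the enzymes that esterify cholesterol, had 0.10 and 0.13 TPM on 4 and 7 counts. Stard3, a late endosomal sterol carrier, was the 1 gene past the threshold, with 37.4 and 30.9 TPM in replicates 1 and 2, a log2 difference of 0.27. Of fatty acid synthesis and desaturation all 10 genes were detected, with a median of 44.3 TPM. Scd2, a desaturase, had 231 and 243 TPM, and Acly, which makes cytosolic acetyl-CoA, 158 and 159 TPM. Scd1, another desaturase, was the lowest at 6.88 and 9.09 TPM, and it alone of the 10 was past the threshold, at -0.36.

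Sterol breakdown and steroid synthesis stood at the bottom, with 6 of 8 genes detected and a median of 3.885 TPM. Hsd3b7, of bile acid synthesis, had 8.53 and 8.09 TPM, and Cyp27a1, a sterol hydroxylase, 7.11 and 8.18 TPM. Cyp7a1, the rate-limiting enzyme of bile acid synthesis, had 0 counts in replicate 1 and 2 in replicate 2. Of these 8 genes, 2 were past the threshold lower in replicate 1 (Cyp7b1 and Ch25h) and 1 higher (Cyp46a1), on counts from 44.4 to 343. Set side by side, the median mean level was 43.4 TPM for the 18 enzymes of cholesterol synthesis, 44.3 TPM for the list of fatty acid synthesis and desaturation and 3.885 TPM for that of sterol breakdown and steroid synthesis.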

How the data were processed

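Gene and transcript tables of 2 libraries, each made on mm10 with GENCODE releases M21 and M4, were used as deposited. Per the file headers, they hold the expected count (reads per feature, not whole where shared reads were divided), TPM, posterior mean TPM, FPKM and, for transcripts, the percent of the gene's TPM. For the aligner, the quantifier and the strand setting, the sources used here name none. Of the members, 12 had counts that were not whole (beyond 0.005 of a whole number). Summed expected counts were 28705073 in replicate 1 and 41092194 in replicate 2, of which spike-ins took 2.85% and 3.10% and rows that name no gene 0.00014% and 0.00011%. These last 2 kinds of row stayed out of library sizes, while the deposited TPM counts the spike-ins in.

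Members and lists were chosen with earlier results of these data known. All members are named by symbol, and of each other list the 2 genes of highest and the 1 of lowest mean TPM, with others past the threshold and the region markers named after their values were seen. Transcripts with a share of at least 10% were eligible for naming. Differences are on log2(TPM + 1), with a threshold of 0.25. The ratio script was tested on simulated data. Python 3.11.15, pandas 2.3.3, numpy 2.4.6 and scipy 1.17.1 were used. edgeR 4.0.16 and DESeq2 1.42.0 in R 4.3.3 gave scaling factors only, on expected counts rounded to whole numbers. The motifs were chosen as known forms, and searched in RefSeq promoter windows that were matched by symbol. A planned comparison of protein sequences was not run. Alternatives were other pseudocounts, scalings, thresholds, releases and estimates, leaving out each replicate, and, chosen after seeing the data, centring on GC content or transcript length in 20 bins and transcript shares by counts.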

Additional observations from a re-analysis of the deposited data

How the results depend on the processing

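With 2 pools of 1 tissue these values describe 2 libraries. Counting error of reads is the part of their error that can be given, and it can be too small, since reads are not separate molecules. All 27 members stayed detected at a TPM of at least 1 with release M4, with the posterior mean, with FPKM and in either replicate alone. The median level of 43.6 TPM was 45.3 with release M4, 45.03 with the posterior mean TPM, 46.8 with rescaled FPKM and 46.8 with TPM over named genes only, and 43.0 to 44.2 in single replicates. The 3 members past the threshold between replicates became 1 with ERCC scaling, which was Npc1 on the higher side, and 0 at a log2 threshold of 0.5. The median difference between replicates, -0.039, turned to 0.065 with ERCC scaling, where the background median was 0.124. The 1 member that differed between releases became 2 at the lower ratio limit tried, 0 at a ratio of 2 and 0 with scaled counts. The 11 members with 1 leading transcript became 22 at a share of 50% and 17 with release M4, were 16 by shares of expected counts, and were 11 to 12 in single replicates. Of the 27 single levels, 17 moved by more than the spread between replicates with release M4 and 11 with the posterior mean. The cause of the shift under ERCC scaling was not tested. No paired analysis was possible because both samples form 1 group and no test was made.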
